A study of Mus musculus with 6 samples.

Results

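Transcripts of 36 fatty acid oxidation genes were compared between the fat of patDp/+ mice and that of wild type mice. The genes were a set list of enzymes, carriers and regulators, found by the gene name that the array design gives each probe, and split by role into the carnitine shuttle (5 genes), mitochondrial oxidation (19), peroxisomal oxidation (7) and a group of regulators and thioesterases (5). All 36 were represented among the 19194 genes or features tested. The tissue was epididymal white fat, which lies next to the testis in the abdomen, from 3 patDp/+ mice and 3 wild type mice, with 1 one-colour array per mouse. Mice of both groups were male, 9 to 10 weeks old and of C57BL/6 background. The patDp/+ mice carry on 1 chromosome 7 a duplication of paternal origin, named in the series' title as a model of 15q11-13 duplication syndrome, and the wild type mice lack it. The labels give no diet, feeding state or litter, and other ages were not analysed here.

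Fatty acids are oxidised in steps that each have their own enzymes. Long chains enter mitochondria as carnitine esters, and an acyl-CoA dehydrogenase, an enoyl-CoA hydratase, a hydroxyacyl-CoA dehydrogenase and a thiolase then shorten them in turn, while peroxisomes begin the shortening of very long and branched chains. White fat mainly stores and releases fatty acids and oxidises fewer than liver, heart or brown fat, and many of these genes are targets of the receptor PPAR alpha and the coactivator PGC-1 alpha in mouse tissues.

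Levels below are log2 signals relative to the 75th percentile of the same array, so that 0 is the 75th percentile and 1 unit is a doubling. A level belongs to a probe as well as to a gene, so levels are compared only between arrays. Between 63.4% and 71.7% of probes were well above background per array, and all 48 probes of the 36 genes passed the filter, which asked for this on at least 3 of 6 arrays. As a check of the groups, Snrpn and Ndn, from the duplicated stretch of chromosome 7, were higher in patDp/+ fat by 1.19 ± 0.13 and 1.08 ± 0.13 (log2, SE), with no overlap between the groups. The source name of all 6 samples speaks of wild type, and the groups were taken from the titles. The probes of 5 oxidation genes (Etfb, Ucp3, Ucp2, Acadsb and Echs1) lie on chromosome 7, between 12.6 and 77.7 Mb outside the stretch spanned by the Herc2 and Mkrn3 probes (mm9).

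Promoter windows of 300 bases, from 250 before to 50 after the first transcribed base, were available for 30 of the 36 genes from RefSeq (GRCm38.p6). Acad9, Cpt1b, Hsd17b4, Decr1, Acaa2 and Crat had none. The windows were searched on both strands for AGGTCA, the core element of nuclear receptors, for its direct repeat with any 1 base between the copies, which PPAR alpha binds with its partner RXR, and for TCAAGGTCA, the element of the estrogen-related receptors, each of which also contains AGGTCA. The direct repeat was in 0 of 30 windows and in 0.0396% of all 32851 windows, and TCAAGGTCA was in 0 of 30 and in 0.423% of all. Both are so rare that 0 of 30 windows does not show whether these genes differ from others. The core element was in 16.7% of the genes (Acadm, Acadvl, Cpt1a, Echs1 and Ucp3), a share close to the 16.3% of all windows. The core element thus does not set these 300-base windows apart, and sequence outside them was not searched. The windows of Cpt1a, Echs1 and Acadvl are shown because they hold the core element and the patDp/+ and wild type values of these genes do not overlap below. Acadsb, Acad10, Decr2, Acaa1a and Acot1 do not overlap either, and their windows lack the element. In the windows shown, the core element, or its reverse complement TGACCT, is in capitals. The Cpt1a window is chr19:3323051-3323350 on the plus strand, with the match 94 bases before the start. The Echs1 window is chr7:140116372-140116671 on the minus strand, with the match 83 bases before the start, and the Acadvl window is chr11:70015379-70015678 on the minus strand, with the match 87 bases before the start.
Cpt1a: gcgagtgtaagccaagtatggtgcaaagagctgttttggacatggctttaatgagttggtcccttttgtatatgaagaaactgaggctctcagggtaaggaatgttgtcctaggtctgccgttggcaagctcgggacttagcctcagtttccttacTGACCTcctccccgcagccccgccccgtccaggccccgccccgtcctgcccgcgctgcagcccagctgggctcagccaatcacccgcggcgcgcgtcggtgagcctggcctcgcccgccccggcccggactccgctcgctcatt
Echs1: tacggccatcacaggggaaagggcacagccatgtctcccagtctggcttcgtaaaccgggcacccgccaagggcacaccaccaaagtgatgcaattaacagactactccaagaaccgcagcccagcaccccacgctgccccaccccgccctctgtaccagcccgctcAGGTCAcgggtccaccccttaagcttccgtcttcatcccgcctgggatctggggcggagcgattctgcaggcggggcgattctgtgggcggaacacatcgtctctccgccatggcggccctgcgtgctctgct
Acadvl: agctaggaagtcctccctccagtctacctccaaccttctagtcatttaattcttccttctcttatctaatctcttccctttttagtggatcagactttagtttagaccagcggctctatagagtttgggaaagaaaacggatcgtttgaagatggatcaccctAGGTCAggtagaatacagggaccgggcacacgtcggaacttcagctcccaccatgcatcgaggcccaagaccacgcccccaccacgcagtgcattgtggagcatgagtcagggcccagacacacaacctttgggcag

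The next 2 windows belong to Hadha and Hadhb, which encode the alpha and beta subunits of the mitochondrial trifunctional protein and are transcribed away from each other. Their first transcribed bases lie 273 bases apart, and their windows share 228 bases read on opposite strands. They are shown because 1 stretch lies at the start of both genes. Capitals mark the bases from the first transcribed one on, in chr5:30155003-30155302 (plus strand) for Hadhb and chr5:30154931-30155230 (minus strand) for Hadha.
Hadhb: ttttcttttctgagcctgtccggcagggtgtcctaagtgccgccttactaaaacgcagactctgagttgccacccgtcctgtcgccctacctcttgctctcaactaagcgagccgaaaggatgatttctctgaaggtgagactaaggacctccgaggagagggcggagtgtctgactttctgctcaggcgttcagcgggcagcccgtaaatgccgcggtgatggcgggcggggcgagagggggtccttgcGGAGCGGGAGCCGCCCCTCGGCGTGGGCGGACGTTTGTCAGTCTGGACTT
Hadha: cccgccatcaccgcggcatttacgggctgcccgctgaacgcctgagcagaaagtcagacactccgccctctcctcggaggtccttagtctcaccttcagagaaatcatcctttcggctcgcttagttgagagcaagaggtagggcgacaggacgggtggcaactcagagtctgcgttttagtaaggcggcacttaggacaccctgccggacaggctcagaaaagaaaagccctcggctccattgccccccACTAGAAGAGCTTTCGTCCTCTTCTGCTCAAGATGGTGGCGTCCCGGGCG

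Most of the 36 genes had slightly lower levels in patDp/+ fat, and no single gene passed the test over all genes. The log2 difference was below 0 for 28 genes (77.8%) and above 0 for 8 (22.2%), where 52.7% of all 19194 genes lay below 0 and 47.3% above. The median difference was -0.10, against -0.01 over all genes. It was -0.20 with normexp, an alternative background correction, against 0.07 over all genes. Without patDp/+ replicate 2 it was -0.05 and without patDp/+ replicate 3 it was -0.19. The most negative difference belonged to Acot1 (-0.52) and the most positive to Cpt1a (0.23). In limma, the adjusted p over all genes was 0.872 or more for every one of the 36, and 0% of all genes passed, the smallest adjusted p of any gene being 0.345. At an unadjusted p under 0.05 there were 5 of the 36 genes, while 5.6% of all genes were there in either direction. Of these, 4 were lower (11.1% of the 36, against 2.92% of all genes) and 1 was higher (2.78%, against 2.68%). With normexp, 6 of the 36 were lower and 0 higher, against 1.58% of all genes lower and 2.75% higher. The groups did not overlap for 7 genes that were lower (19.4%, against 5.87% of all genes) and for 2 that were higher (5.56%, against 5.23%). These shares are a description and were not tested. The number of genes at an unadjusted p under 0.05 depended on single arrays, as did the share of all genes. It was 1 of the 36 (2.78%) without patDp/+ replicate 1, against 3.98% of all genes, and 8 (22.2%) without patDp/+ replicate 3, against 9.32%. It was 2 (5.56%) without patDp/+ replicate 2, against 3.93%, and 2 without wild type replicate 1, against 4.33%. Without wild type replicate 2 it was 4 (11.1%), against 6.16%, and without wild type replicate 3 it was 3 (8.33%), against 5.56%.

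**Figure D1:**
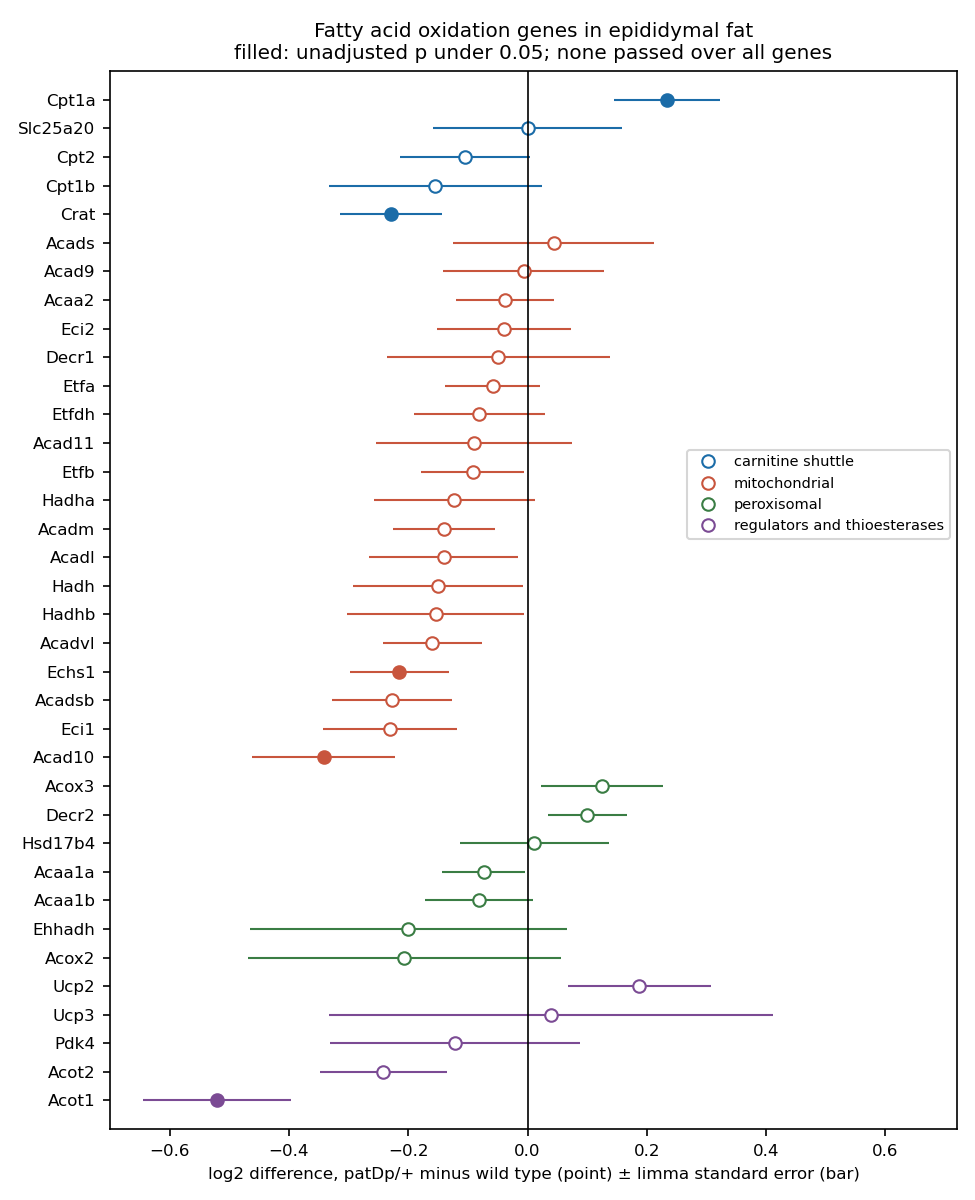
The log2 difference between patDp/+ and wild type fat is plotted on the horizontal axis for each of the 36 genes, with bars of 1 limma standard error (3 arrays per group) and colours for the 4 role groups. The 5 filled points, Cpt1a, Crat, Echs1, Acad10 and Acot1, had an unadjusted p under 0.05, and 28 of the 36 points lie left of 0.

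**Figure D2:**
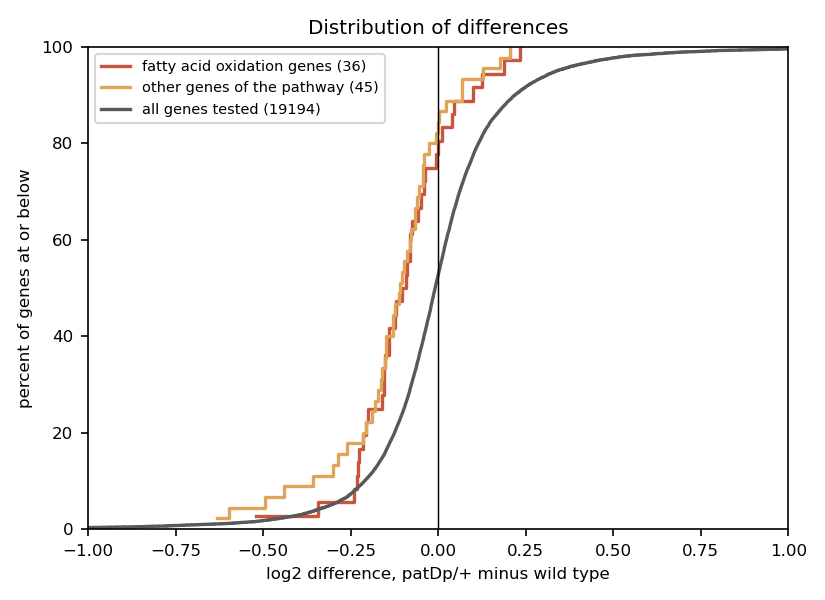
The percent of genes at or below each log2 difference is drawn for 3 sets of genes. These are the 36 fatty acid oxidation genes, 45 other genes of the pathway or related to it, and all 19194 genes or features tested. Both pathway curves run left of the curve of all genes around 0, where 77.8% of the 36 genes and 52.7% of all genes lie below 0. The plot spans -1 to 1, so a few genes of the whole array fall outside it.

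Within the carnitine shuttle, 3 genes were lower and 2 were higher, and Cpt1a and Crat, the 2 genes at an unadjusted p under 0.05, had opposite signs. Cpt1a encodes the liver form of carnitine palmitoyltransferase 1, the enzyme of the outer mitochondrial membrane that controls the entry of long-chain fatty acids. Its level was 2.68, 2.77 and 2.57 on the 3 patDp/+ arrays, against 2.46, 2.35 and 2.52 on the wild type arrays, so all patDp/+ values lay above all wild type values. The difference was 0.23 ± 0.09 (log2, SE), or 1.18-fold, with an unadjusted p of 0.0374 and an adjusted p of 0.877 in limma. A second, dimmer probe of Cpt1a differed by 0.10 ± 0.15 and its groups overlapped. With normexp, which models the background from spot and local background brightness, the difference of Cpt1a was 0.11 with an unadjusted p of 0.467 in limma, the highest over 20 alternatives that reached down to 0.0187.

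Crat encodes carnitine acetyltransferase, which moves short acyl groups between carnitine and CoA. Its level was 4.70, 4.87 and 4.90 on the patDp/+ arrays, against 4.99, 5.09 and 5.07 on the wild type arrays, again without overlap but in the other direction. The difference was -0.23 ± 0.09 (log2, SE), with an unadjusted p of 0.0351 and an adjusted p of 0.875 in limma, and it was -0.39 with normexp. Cpt1b, the muscle form of the entry enzyme, had a level of -3.13, -3.12 and -2.70 on the patDp/+ arrays and of -3.12, -2.75 and -2.62 on the wild type arrays. These values overlapped, and the difference was -0.15 ± 0.18, or 0.20 with normexp. Cpt2, the enzyme of the inner membrane that releases the chain from carnitine, differed by -0.10 ± 0.11, and Slc25a20, the carrier that exchanges carnitine esters for carnitine, by 0.00 ± 0.16.

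Among the genes that the list places in the mitochondrial group, 18 of 19 were lower in patDp/+ fat (94.7%, against 52.7% of all genes). Their median difference was -0.12. Acads alone was above 0, at 0.04 ± 0.17 (log2, SE), and its sign turned with normexp (-0.03) and with array weights (-0.07). Acad10 and Echs1 were lower at an unadjusted p under 0.05 in limma (10.5%, against 2.92% of all genes). The groups did not overlap for these 2 and for Acadvl and Acadsb, all lower (21.1%, against 5.87% of all genes). Normalization by quantiles, cyclic loess or the median of kept probes left the same 5 of the 36 genes at an unadjusted p under 0.05.

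Echs1 encodes the short-chain enoyl-CoA hydratase, the enzyme of the second step of the spiral. Its level was 5.34, 5.25 and 5.42 on the patDp/+ arrays, against 5.55, 5.48 and 5.62 on the wild type arrays. The 3 patDp/+ values were the 3 lowest, and the difference was close to the same within each slide, at -0.20, -0.23 and -0.21. Overall it was -0.21 ± 0.08 (log2, SE), with an unadjusted p of 0.0396 and an adjusted p of 0.877 in limma, and -0.36 with normexp.

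Acadvl and Acadsb encode acyl-CoA dehydrogenases, the enzymes of the first step. Acadvl, which acts on very long chains, had a level of 4.75, 4.71 and 4.91 on the patDp/+ arrays, against 4.92, 4.93 and 4.999 on the wild type arrays, a difference of -0.16 ± 0.08 (log2, SE). Acadsb, which acts on short branched chains, had 2.94, 2.79 and 2.93 on the patDp/+ arrays, against 3.25, 3.14 and 2.96 on the wild type arrays, a difference of -0.23 ± 0.10. In both genes the patDp/+ values lay below the wild type values, by a small gap between the nearest arrays. Acad10, a less studied member of the dehydrogenase family, had the most negative mitochondrial difference, -0.34 ± 0.12, with an unadjusted p of 0.0284 and an adjusted p of 0.875 in limma. Its level was 0.12, 0.47 and 0.19 on the patDp/+ arrays, against 0.71, 0.49 and 0.61 on the wild type arrays, and within slide 2, which held replicate 2 of both groups, the difference was -0.02.

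The subunits of the trifunctional protein, which carries out the last 3 steps for long chains, did not separate the groups. Hadhb had a level of 4.53, 4.38 and 4.81 on the patDp/+ arrays, against 4.53, 4.91 and 4.74 on the wild type arrays, a difference of -0.15 ± 0.15 (log2, SE). Hadha had 1.53, 1.49 and 1.81 on the patDp/+ arrays, against 1.52, 1.86 and 1.82 on the wild type arrays, a difference of -0.12 ± 0.14. Both genes were lowest on patDp/+ replicate 2 and highest on wild type replicate 2. Hadha and Hadhb were given per array, although they met no rule for it, because of the shared stretch of sequence shown above. Of the remaining lower mitochondrial genes, Eci1, an isomerase for unsaturated chains, had the most negative difference (-0.23 ± 0.11) and Acad9, a dehydrogenase that also helps to assemble respiratory complex I, the least (-0.01 ± 0.14). The medium-chain and long-chain dehydrogenase genes Acadm and Acadl each had -0.14, and the 3 genes by which dehydrogenases pass electrons to the respiratory chain, Etfa, Etfb and Etfdh, had -0.06, -0.09 and -0.08.

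**Figure D3:**
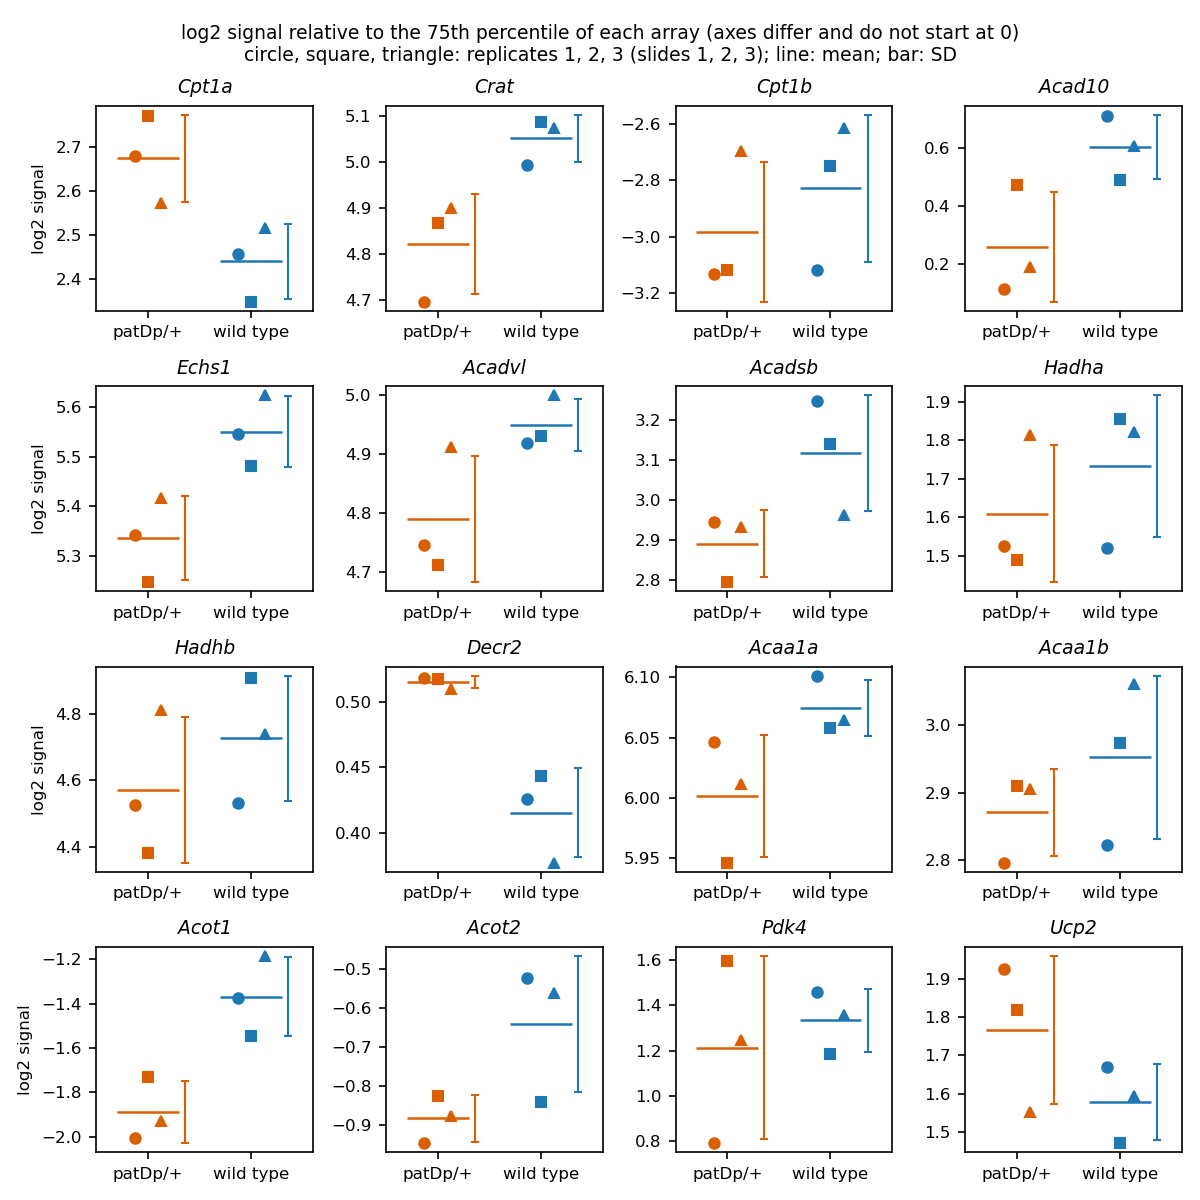
The log2 signal relative to the 75th percentile of each array is plotted for 16 genes, with the 3 patDp/+ arrays on the left and the 3 wild type arrays on the right of each panel. Symbols mark replicates 1, 2 and 3, lines the mean and bars 1 SD, and the vertical axes differ between panels and do not start at 0. Cpt1a and Decr2 are higher without overlap in patDp/+ fat, and Crat, Acad10, Echs1, Acadvl, Acadsb, Acaa1a and Acot1 are lower without overlap.

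In the peroxisomal group, 4 genes were lower and 3 were higher, with a median difference of -0.07 and 0 genes at an unadjusted p under 0.05. Decr2 encodes the peroxisomal dienoyl-CoA reductase for unsaturated chains. Its level was 0.52, 0.52 and 0.51 on the patDp/+ arrays, against 0.43, 0.44 and 0.38 on the wild type arrays, a difference of 0.10 ± 0.07 (log2, SE) without overlap. Acaa1a, a peroxisomal thiolase, had 6.05, 5.95 and 6.01 on the patDp/+ arrays, against 6.10, 6.06 and 6.06 on the wild type arrays, a difference of -0.07 ± 0.07. Those groups did not overlap on the brightest of its 3 probes, and all 3 probes were lower, by -0.05 to -0.07. Acaa1b, its close paralog, had 2.80, 2.91 and 2.91 on the patDp/+ arrays and 2.82, 2.97 and 3.06 on the wild type arrays, which overlapped, and a difference of -0.08 ± 0.09. The 60-base probes of the pair share no run longer than 6 bases, although cross-hybridisation was not tested.

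The other 4 peroxisomal genes were Acox2 and Acox3, oxidases of branched chains, and the multifunctional enzymes Ehhadh and Hsd17b4. Acox3 differed by 0.12 and Hsd17b4 by 0.01. Acox2 (-0.21 ± 0.26, log2, SE) and Ehhadh (-0.20 ± 0.27) varied most in this group, with a patDp/+ SD of 0.50 for Acox2 and 0.42 for Ehhadh. On patDp/+ replicate 2 both were at their lowest, -5.10 for Acox2 and 1.18 for Ehhadh, and without that array their differences were 0.05 and 0.03.

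Acot1 had the smallest p of the 36 genes. It encodes a cytosolic thioesterase that frees fatty acids from CoA and is a known PPAR alpha target in mouse liver. Its level was -2.01, -1.73 and -1.93 on the patDp/+ arrays, against -1.37, -1.55 and -1.19 on the wild type arrays, with all patDp/+ values below all wild type values. The difference was -0.52 ± 0.12 (log2, SE), or 1.43-fold higher in wild type, with an unadjusted p of 0.00537 and an adjusted p of 0.872 in limma. Under 20 alternatives to the processing it was negative, between -0.61 and -0.18, and its unadjusted p was under 0.05 in 19 of them, with normexp as the exception (-0.18, unadjusted p of 0.387 in limma, where the others reached down to 0.00378).

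Acot2, the mitochondrial thioesterase whose gene neighbours Acot1, had a level of -0.95, -0.82 and -0.88 on the patDp/+ arrays, against -0.52, -0.84 and -0.56 on the wild type arrays. Wild type replicate 2 lay among the patDp/+ values, and the difference was -0.24 ± 0.11 (log2, SE). The probes of Acot1 and Acot2 share no run longer than 6 of 60 bases. Pdk4 encodes the kinase that shuts off pyruvate dehydrogenase when fatty acids are burned. Its level was 0.79, 1.599 and 1.25 on the patDp/+ arrays and 1.46, 1.18 and 1.36 on the wild type arrays, so the patDp/+ mice held both the lowest and the highest value and the difference was -0.12 ± 0.21. Ucp2, a carrier of the inner mitochondrial membrane that is abundant in macrophages, had 1.93, 1.82 and 1.55 on the patDp/+ arrays and 1.67, 1.47 and 1.59 on the wild type arrays, a difference of 0.19 ± 0.12. All 3 Ucp2 probes were higher, by 0.14 to 0.19, and patDp/+ replicate 3 lay inside the wild type range of the brightest one. Ucp3, the related carrier known from muscle, differed by 0.04 ± 0.37, with a wild type SD of 0.78.

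Most of the low values lay on 2 of the 3 patDp/+ arrays. Of the 36 genes, 15 were at their lowest on patDp/+ replicate 1, 14 on patDp/+ replicate 2 and 0 on patDp/+ replicate 3, against 4, 2 and 1 on wild type replicates 1, 2 and 3. Of all genes, 15.7%, 17.5% and 18.4% were at their lowest on patDp/+ replicates 1, 2 and 3, against 22.6%, 16.9% and 8.97% on wild type replicates 1, 2 and 3. The highest value lay on patDp/+ replicates 1, 2 and 3 for 2, 2 and 10 genes. It lay on wild type replicates 1, 2 and 3 for 5, 8 and 9 genes. Of all genes, 18.1%, 13.5% and 16.2% were at their highest on patDp/+ replicates 1, 2 and 3. On wild type replicates 1, 2 and 3 these shares were 20.3%, 18.8% and 13.2%. The median deviation of the 36 genes from their own mean was -0.12, -0.14 and 0.08 on patDp/+ replicates 1, 2 and 3, and -0.05, 0.09 and 0.08 on wild type replicates 1, 2 and 3. The median difference was -0.07, with 23 genes lower, without patDp/+ replicate 1, and -0.05, with 24 lower, without patDp/+ replicate 2. Without patDp/+ replicate 3, 32 genes were lower. Negative control spots were brighter on patDp/+ replicate 1 (mean net signal 36.7) than elsewhere (29.0 to 31.6), and the part of this in the values above was not tested.

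**Figure D4:**
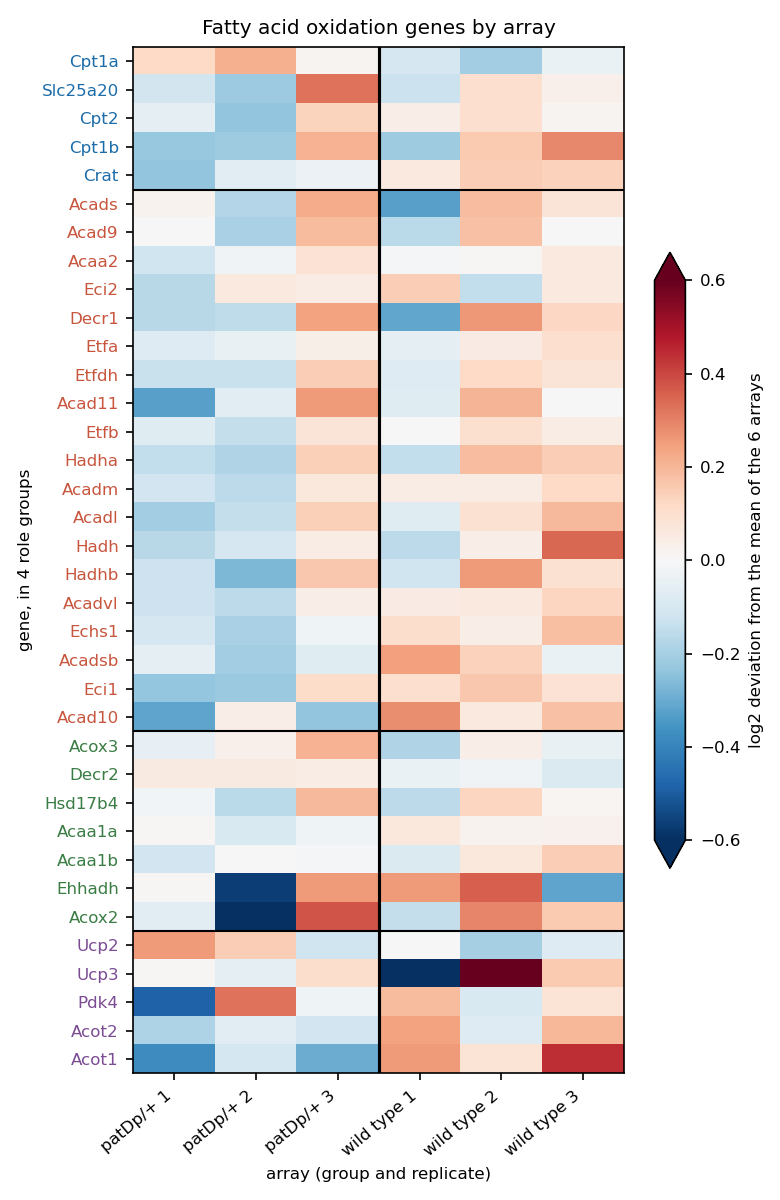
The colour of each cell gives the log2 deviation of a gene on 1 array from its mean over the 6 arrays, with genes down the page in their 4 role groups and the 3 patDp/+ arrays left of the 3 wild type arrays. PatDp/+ replicates 1 and 2 are blue for most mitochondrial genes, whereas patDp/+ replicate 3 is red for most, with group-wide medians of -0.12, -0.15 and 0.09 over the 19 genes.

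Each of the 3 slides held 1 patDp/+ and 1 wild type array with the same replicate number, and the difference varied between slides. The median of the 36 genes within slides 1, 2 and 3 was -0.06, -0.23 and -0.01, with 24, 30 and 19 genes lower, while the medians of all genes were 0.02, -0.02 and -0.01. Of the 19 mitochondrial genes, 15, 18 and 10 were lower within the 3 slides. Within every slide 13 of the 36 genes were lower (against 14.6% of all genes) and 2, Cpt1a and Decr2, were higher (against 11.2%). With the slide as a block, which is the same fit as the replicate number as a block, 2 of the 36 genes, Crat and Acot1, had an unadjusted p under 0.05 in limma (5.56%, against 5.12% of all genes), and Cpt1a (0.0923), Acad10 (0.0712) and Echs1 (0.0506) did not.

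**Figure D5:**
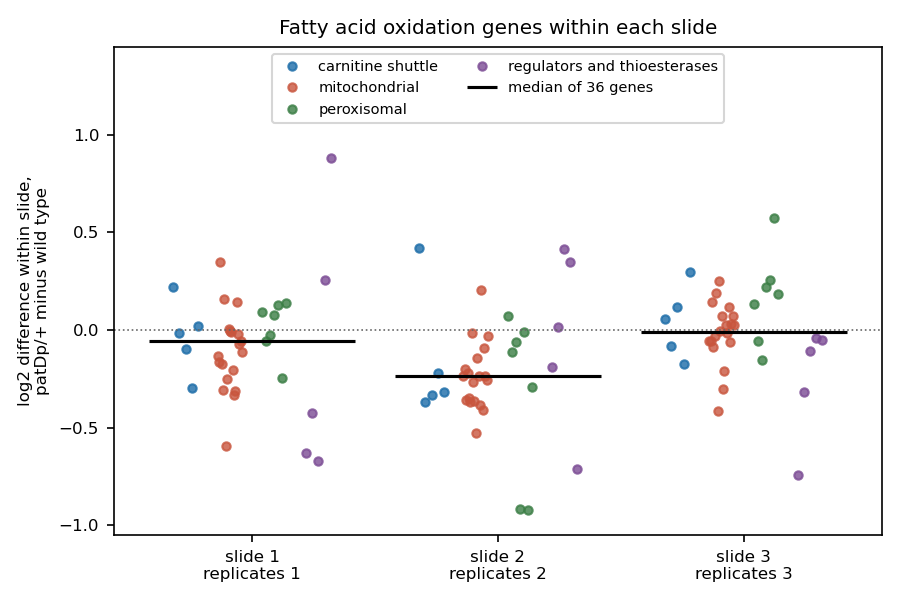
The log2 difference between the patDp/+ and the wild type array of the same slide is plotted for the 36 genes, coloured by role group, with a black line at the median of each slide. The medians are -0.06, -0.23 and -0.01, and on slide 2 the 19 mitochondrial genes lie below 0 except for 1.

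Other genes of fatty acid oxidation or related to it, among them regulators and enzymes of other pathways, were mostly lower as well. Of 49 listed, 45 were tested, of which 38 were lower and 7 higher, with a median difference of -0.11. Acot12, Acot3, Acsl6 and Ppard did not pass the filter on dim probes. Of the 45, 2 were lower at an unadjusted p under 0.05 (4.44%, against 2.92% of all genes) and 0 were higher. Both encode coactivators of mitochondrial genes, Ppargc1a (-0.63 ± 0.17, log2, SE) and Ppargc1b (-0.50 ± 0.20), with an adjusted p of 0.872 and 0.877 in limma. The next 4 by p were Acacb, the carboxylase whose product inhibits Cpt1 (-0.60 ± 0.25), Acat1, a thiolase of ketone body and isoleucine breakdown (-0.21 ± 0.09), Ppara, the receptor gene (-0.29 ± 0.13), and Phyh, a peroxisomal hydroxylase for phytanic acid (-0.18 ± 0.09).

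Markers of the cell types in fat were measured on the same arrays. Of 10 adipocyte markers, 7 were lower, with a median difference of -0.09 and 0 at an unadjusted p under 0.05. Their summed linear level was 2174 to 2385 in patDp/+ fat and 2238 to 2665 in wild type fat, relative to the 75th percentile. All 11 macrophage markers tested were higher, with a median of 0.27 and 0 at an unadjusted p under 0.05, and their summed level was 342, 302 and 267 on patDp/+ replicates 1, 2 and 3, against 277, 252 and 271 on wild type replicates 1, 2 and 3. The macrophage sum was highest on patDp/+ replicates 1 and 2, where most of the oxidation genes were lowest, and a link was not tested. On the same 2 arrays the T cell sum was highest and the endothelial and B cell sums were lowest, while the adipocyte sum followed neither pattern. The adipocyte sum weighs its brightest genes most and lacks Pnpla2 on wild type replicate 2, where Pnpla2 had no value. Marker by marker, 9, 8 and 2 adipocyte genes were lower within slides 1, 2 and 3. Without Pnpla2, their median deviation was -0.03, -0.12 and 0.05 on patDp/+ replicates 1, 2 and 3. It was 0.13, 0.02 and -0.05 on wild type replicates 1, 2 and 3, and a link was not tested. Lyz2 weighs most in the macrophage sum, with a log2 level of 7.90 on patDp/+ replicate 1, where C1qc, the next brightest, had 4.86. All 5 endothelial markers were lower, with a median of -0.17 and summed levels of 15.8 to 19.4 in patDp/+ fat and 18.1 to 20.3 in wild type fat. Of 7 T cell markers 5 were tested and all 5 were higher, with a median of 0.55. Of these, 3 had an unadjusted p under 0.05 in limma (60%, against 2.68% of all genes). Their summed level was 0.969 to 1.17 in patDp/+ fat and 0.619 to 0.730 in wild type fat, so the groups did not overlap. Cd8a, a chain of the CD8 receptor of cytotoxic T cells, had a difference of 1.35 ± 0.13 (log2, SE), higher within every slide, and in limma its adjusted p of 0.345 was the smallest of all genes. All 5 B cell markers were lower, with a median of -0.60, 1 of them at an unadjusted p under 0.05 in limma (20%, against 2.92% of all genes). Their summed level was 0.750 to 1.68 in patDp/+ fat and 1.57 to 2.19 in wild type fat. With normexp the B cell median was 0.02, with 3 higher and 2 lower, while the T cell median was 0.75, with 5 higher. All 6 mesothelial markers were higher, with a median of 0.08, or 0.03 with 4 higher under normexp. Of 6 fibroblast and progenitor markers 4 were higher, with a median of 0.03, or -0.09 with 2 higher under normexp. The 2 erythroid markers tested were higher, with a median of 0.15. In these 3 lists 0 markers had an unadjusted p under 0.05 in limma. In RNA of whole tissue, fewer cells of a type and less RNA per cell cannot be told apart, and the part of cell composition in the oxidation genes was not tested.

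Of 9 brown and beige markers 7 were tested, with 5 lower (Ppargc1a, also counted above, among them) and a median of -0.12, and a summed level of 15.5 to 24.4 in patDp/+ fat and 17.1 to 27.4 in wild type fat. Ucp1 and Elovl3, which define brown fat, were on no array well above background. Of 10 skeletal muscle markers 7 were tested and 5 were higher, 2 of them at an unadjusted p under 0.05 in limma (28.6%, against 2.68% of all genes). These were Acta1, the skeletal actin gene (1.30 ± 0.27, log2 difference and SE), and Myh2, a fast myosin heavy chain (0.61 ± 0.23). The summed level of the 7 was 4.53 to 8.01 in patDp/+ fat and 2.37 to 2.93 in wild type fat. Without Acta1, a sum chosen after seeing the data, it was 0.755 to 1.05 in patDp/+ fat and 0.671 to 0.859 in wild type fat, so that the groups overlapped. Mb (-0.34) and Mylpf (-0.06) were the 2 lower markers. The fibre genes Myh1, Myh2, Mylpf and Tnni2 were well above background on all 6 arrays, while Ckm, Myh4 and Pvalb were so on 0 arrays, and 0 of 7 epididymis markers passed the filter. Of 5 testis and sperm markers, Prm1, Prm2, Tnp1 and Tnp2 were well above background on all 6 arrays, and Ldhc on 0. Of these 4, 1 was higher and 3 were lower, with a median of -0.07 and 0 at an unadjusted p under 0.05 in limma. With normexp their median was 0.53, with 4 higher, and the source of their RNA was not tested. For the oxidation genes known from muscle, the differences were -0.15 ± 0.18 (Cpt1b) and 0.04 ± 0.37 (Ucp3), and 0.20 and 0.27 with normexp, and the part of muscle RNA in them was not tested.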

How the data were processed

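Total RNA of each mouse was labelled with Cy3 and hybridised to 1 Agilent array, read with Feature Extraction 9.5.1.1, per the file headers. The intensity used, background-subtracted and detrended per the file headers, was not scaled between arrays. Spots of a probe were averaged without outlier flags, and log2 values were taken minus the 75th percentile of all non-control probes. Probes well above background on at least 3 of 6 arrays were kept (27975 of 41174), with the brightest per gene. Gene symbols came through RefSeq accessions (27050 probes, GRCm38.p6). The groups were compared with limma 3.58.1 (lmFit and eBayes, 2-sided) in R 4.3.3, with Benjamini-Hochberg adjustment over 19194 genes or features. The p-values measure the spread between mice, and 3 arrays per group limit the precision. The fit was tested on simulated data of 19194 genes, with 50 genes each at a log2 difference of 0.25, 0.5, 1 and 2. Of 50 genes simulated with a log2 difference of 0.25, 1 had an adjusted p under 0.05 in limma and 20 an unadjusted p under 0.05. Of 50 simulated with 0.5, these numbers were 14 and 40. The deposited log2 table is quantile normalized per its file name, with no background correction stated, and limma 3.18.2 is named in the submitters' processing notes. It served as an alternative, beside other background corrections, normalizations, filters, probe rules, blocks, weights and left-out arrays.

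The members and gene lists were chosen with earlier results of these data known. Values per array are given for genes at an unadjusted p under 0.05, genes whose groups do not overlap, Cpt1a, Cpt1b, Pdk4, Ucp2 and 2 pairs of paralogs. Replicate numbers coincide with slides, per the file headers. Same-numbered arrays correlated at 0.11, -0.09 and -0.04 in their deviations from the group means, so the main design has no replicate block.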

Additional observations from a re-analysis of the deposited data

How the results depend on the processing

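No gene passed an adjusted p under 0.05 in limma under any alternative, and the smallest adjusted p of any of the 36 genes was 0.401, without patDp/+ replicate 3. The median stayed below 0 throughout, from -0.20 with normexp to -0.05 without patDp/+ replicate 2. The number of the 36 genes at an unadjusted p under 0.05 was 5 as reported (13.9%, against 5.6% of all genes). It was 2 with no filter on dim probes (5.56%, against 4.15%), 2 with the slide block and 2 with the replicate block (5.12% of all genes in both), 9 with array weights (25%, against 9.08%), and 1 to 8 with 1 array left out. Over all genes it was 1075 as reported, 1742 with array weights, and 755 to 1788 with 1 array left out. Higher against lower genes numbered 514 and 561 as reported, 528 and 303 with normexp, 736 and 476 with no filter, and 1099 and 689 without patDp/+ replicate 3. The same-numbered arrays share a slide, and no block changed an adjusted call.

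Alternatives that changed only the blocks, the variance model, the filter on dim probes or the naming of probes left the differences of the 36 genes as they were. They are counted in the 720 values of single genes under alternatives, so part of these values could not change sign. Of the 720, 35 changed sign, in 14 genes, and 685 did not. With normexp the changed ones were Cpt1b (0.198), Slc25a20 (-0.070), Acads (-0.033), Acox2 (0.454), Acox3 (-0.022) and Hsd17b4 (-0.086). Slc25a20 and Hsd17b4 changed sign with quantile normalization (-0.0011 and -0.0053) and with the 75th percentile over spots, an alternative chosen after seeing the data (-0.012 and -0.0014). With array weights Slc25a20 (-0.099), Acads (-0.069), Hsd17b4 (-0.056) and Ucp3 (-0.091) did. Leaving out 1 array gave -0.239 to 0.052 for Acad11, -0.124 to 0.033 for Eci2, -0.217 to 0.068 for Decr1, -0.090 to 0.013 for Acaa2, -0.315 to 0.090 for Pdk4, -0.103 to 0.089 for Acad9, -0.447 to 0.053 for Acox2, -0.407 to 0.032 for Ehhadh, -0.163 to 0.109 for Slc25a20, -0.109 to 0.147 for Acads, -0.083 to 0.095 for Hsd17b4 and -0.389 to 0.379 for Ucp3. The cause was not tested. Naming probes by accession as well added 0 probes. The chosen probes of all 36 genes were well above background on all 6 arrays, and 3 arrays per group limit the precision.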
